A study of Mus musculus with 9 samples.

Results

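Expression of 10 autophagy genes was followed in mouse heart RNA: the transcription factor gene Tfeb and the autophagy genes Ulk1, Becn1, Atg5, Atg7, Map1lc3a, Map1lc3b, Gabarapl1, Sqstm1 and Lamp2. The genes were taken by symbol, matched to the gene IDs of the deposited files, and all 10 were found among the 16873 genes listed for every library. RNA was sequenced from hearts of Sting-/- mice given doxorubicin (Sting-/- DOX), of wild-type mice given doxorubicin (WT DOX) and of wild-type mice given saline (WT saline), 3 libraries per group in all 3 groups. The drug, an anthracycline used against cancer, can injure heart muscle, and STING is the adaptor that relays cytosolic DNA sensing by cGAS; the study asked how that pathway acts in hearts under chronic low-dose treatment. The labels give no strain background, age, dose or time for these libraries, and the knockout is not described as restricted to a cell type. Untreated Sting-/- hearts were not analysed here, and what the genotype does without doxorubicin therefore enters each comparison that involves Sting-/- hearts.

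Autophagy wraps cytoplasm and worn organelles in a double membrane, the autophagosome, which then fuses with a lysosome. ULK1 kinase starts the process, Beclin 1 with the class III phosphatidylinositol 3-kinase marks the membrane, ATG7 and ATG5 act in the conjugation reactions that fix ATG8-family proteins (the LC3 and GABARAP proteins) to it, p62 (Sqstm1) brings cargo, and LAMP2 sits in the lysosomal membrane. TFEB is the transcription factor that switches on lysosomal and autophagy genes when mTORC1 no longer holds it in the cytoplasm, and it binds a DNA word built around CACGTG. Heart muscle cells divide little and depend on autophagy to renew mitochondria and contractile proteins. RNA levels report neither the amount of these proteins, nor where TFEB is in the cell, nor the rate of autophagy.

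The CACGTG word bound by TFEB and other factors of its class was searched for in the RefSeq promoter windows of these genes, 250 bases before to 50 bases after each gene's start (table built on GRCm38.p6), because these are the sequences in which a TFEB site near the start would stand. Of the 10 genes, 8 had a window, and CACGTG, which reads the same on both strands, was present in 2 of them, Atg5 and Atg7. Becn1 and Map1lc3a had no entry. Both windows lie on the + strand, at chr10:44268089-44268388 for Atg5 and at chr6:114670846-114671145 for Atg7, and the capitals mark the word, whose first base is 14 bases before the Atg5 start and 132 bases before the Atg7 start.
Atg5: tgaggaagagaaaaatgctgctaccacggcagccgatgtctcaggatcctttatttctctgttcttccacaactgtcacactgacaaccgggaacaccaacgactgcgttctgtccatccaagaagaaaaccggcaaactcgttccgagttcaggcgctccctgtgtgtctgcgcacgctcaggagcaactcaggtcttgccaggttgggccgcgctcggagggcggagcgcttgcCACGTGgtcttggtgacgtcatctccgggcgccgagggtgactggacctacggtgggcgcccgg
Atg7: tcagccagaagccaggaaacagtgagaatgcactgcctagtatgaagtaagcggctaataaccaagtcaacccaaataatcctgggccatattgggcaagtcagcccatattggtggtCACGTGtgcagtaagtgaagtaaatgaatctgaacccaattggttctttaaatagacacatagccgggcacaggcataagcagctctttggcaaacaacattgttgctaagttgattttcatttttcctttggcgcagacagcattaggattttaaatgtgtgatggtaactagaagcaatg
Of all 32851 windows available, 7.15% held CACGTG, and among the 12810 windows of the genes tested below 9.73% did. Of 24 listed TFEB targets with a window, 12 held it. A match describes these letters only, and says nothing on whether a factor binds there.

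Levels are given in FPKM, which counts fragments per kilobase of a transcript relative to all mapped fragments of that library. Judged by the whole-read steps of lowly expressed genes, Sting-/- DOX libraries held about 8.05 to 8.4 times 1e+06 fragments, WT DOX libraries about 12.9 to 13.4 times and WT saline libraries about 11.2 to 11.45 times 1e+06. At these depths the genes rested on about 58.8 fragments per kilobase at the least, for Atg7, and about 5405 at the most, for Map1lc3a. The deleted gene, Sting1, was at 0.06, 0 and 0 FPKM in the Sting-/- DOX libraries, 17.5, 17.96 and 17.8 FPKM in the WT DOX libraries and 5.10, 5.43 and 5.93 FPKM in the WT saline libraries, which matches the labels. Cell-type markers differed widely between groups. Summed over 16 cardiomyocyte markers, all above 0 in every group, the level was 11470 to 12040 FPKM in Sting-/- DOX, 52780 to 55940 FPKM in WT DOX and 82030 to 83010 FPKM in WT saline. For 12 fibroblast markers the sums were 8853 to 9349, 1579 to 1616 and 1039 to 1067 FPKM in the same order of groups, for 12 endothelial markers 1541 to 1653, 360.5 to 369.5 and 368 to 381 FPKM, and for 14 macrophage markers 3273 to 3415, 1651 to 1817 and 511 to 565 FPKM. Sums of 5 erythroid markers (8480 to 9700, 1498 to 1638 and 2454 to 2548 FPKM) and 6 mesothelial markers (94.7 to 98.0, 5.77 to 7.69 and 4.06 to 6.25 FPKM) were also highest in Sting-/- DOX. The same held for 9 smooth muscle and pericyte markers (982.1 to 1048, 284.6 to 296.9 and 362.6 to 409 FPKM), which were lowest in WT DOX. Sums of 9 lymphocyte markers were low and overlapped between the doxorubicin groups (8.57 to 11.39, 9.13 to 17.32 and 4.24 to 4.6 FPKM). The neutrophil and adipocyte lists were highest in WT DOX. In the same order of groups, 6 neutrophil markers summed to 83.1 to 98.35, 215 to 283 and 6.35 to 7.02 FPKM. For 6 adipocyte markers the sums were 16.4 to 18.8, 41.8 to 50.9 and 30.0 to 30.5 FPKM. In bulk tissue, fewer cells of a type and less RNA per cell cannot be told apart, and the part of these shifts in the results below was not tested. Nothing in the labels states that each library is its own animal, and p-values therefore reflect only how far these samples spread, which may be technical variation.

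Differences were tested with limma on log2(FPKM + 1) over all 12485 genes whose mean reached 1 FPKM, and a gene is said to rise or fall where the p adjusted over all of them by the Benjamini-Hochberg method was under 0.05. All 10 genes passed the filter. The median gene itself was displaced, by 0.13 in WT DOX against WT saline, 0.25 in Sting-/- DOX against WT DOX and 0.49 in Sting-/- DOX against WT saline on the log2 scale. With the libraries scaled by median ratios these medians became -0.09, -0.05 and -0.02, and with quantile normalization -0.09, 0.02 and 0.03. For the 10 genes each fold change is therefore also given relative to the median gene, and directions that turn under these scalings are named beside the result. Counts under a rescaling are to be read against those of all 12485 genes under it. Median-ratio scaling gave 3582 higher and 5109 lower in WT DOX against WT saline, and 4709 and 5385 in Sting-/- DOX against WT DOX. Quantile normalization gave 3523 and 5233, and 5211 and 4953. Scaling each library to the same sum gave 5331 and 2909, and 7095 and 3409.

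In WT hearts given doxorubicin, Lamp2, Atg5, Atg7, Tfeb and Gabarapl1 rose against WT saline, Map1lc3b and Ulk1 fell, and Becn1, Map1lc3a and Sqstm1 did not pass the test. The changes were small, from a log2 fold change of -0.36 for Map1lc3b to 0.52 for Lamp2. The 7 of 10 genes that passed compare with 66.7% of all genes tested (45.3% higher and 21.5% lower), and the 8 genes whose group ranges did not overlap compare with 71.7%, so the number that moved is near the background and is not a result about these genes. Their median log2 fold change was 0.10, beside 0.13 over all genes, with 4 genes above the median gene and 6 below it. The rises of Lamp2 and Atg5 and the falls of Map1lc3b and Ulk1 kept their direction and passed under all 19 alternative settings. The rises of Tfeb, Atg7 and Gabarapl1 did not, and under median-ratio scaling 2 genes were higher and 6 lower. Quantile normalization gave 2 higher and 3 lower, and scaling each library to the same sum gave 4 and 2.

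In Sting-/- hearts given doxorubicin, Becn1, Atg7, Lamp2, Map1lc3b and Gabarapl1 were higher than in WT DOX hearts, and Map1lc3a, Sqstm1 and Ulk1 were lower, while Tfeb and Atg5 did not pass the test. Map1lc3a stood apart in size, 3.71-fold lower on the log2(FPKM + 1) scale, and the other 9 genes lay between -0.28 and 0.57 on the log2 scale. The 8 of 10 genes that passed compare with 83.8% of all genes tested (54.1% higher and 29.7% lower), and the 9 without overlap of ranges with 84.8%, again near the background. Their median was 0.12, beside 0.25 over all genes. Under all 19 alternative settings the higher level of Becn1 and the lower levels of Map1lc3a, Sqstm1 and Ulk1 kept their direction and passed. The counts depended on the scaling, with 1 gene higher and 6 lower under median-ratio scaling. Quantile normalization gave 4 higher and 5 lower, and scaling each library to the same sum gave 7 and 3. Against WT saline, Sting-/- DOX hearts had 6 genes higher and 4 lower, which is all 10, beside 88.9% of all genes tested (63.0% higher and 25.9% lower) and a background of 89.2% for ranges that do not overlap. That comparison shares its libraries with both others and is given side by side with them only.

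**Figure D1:**
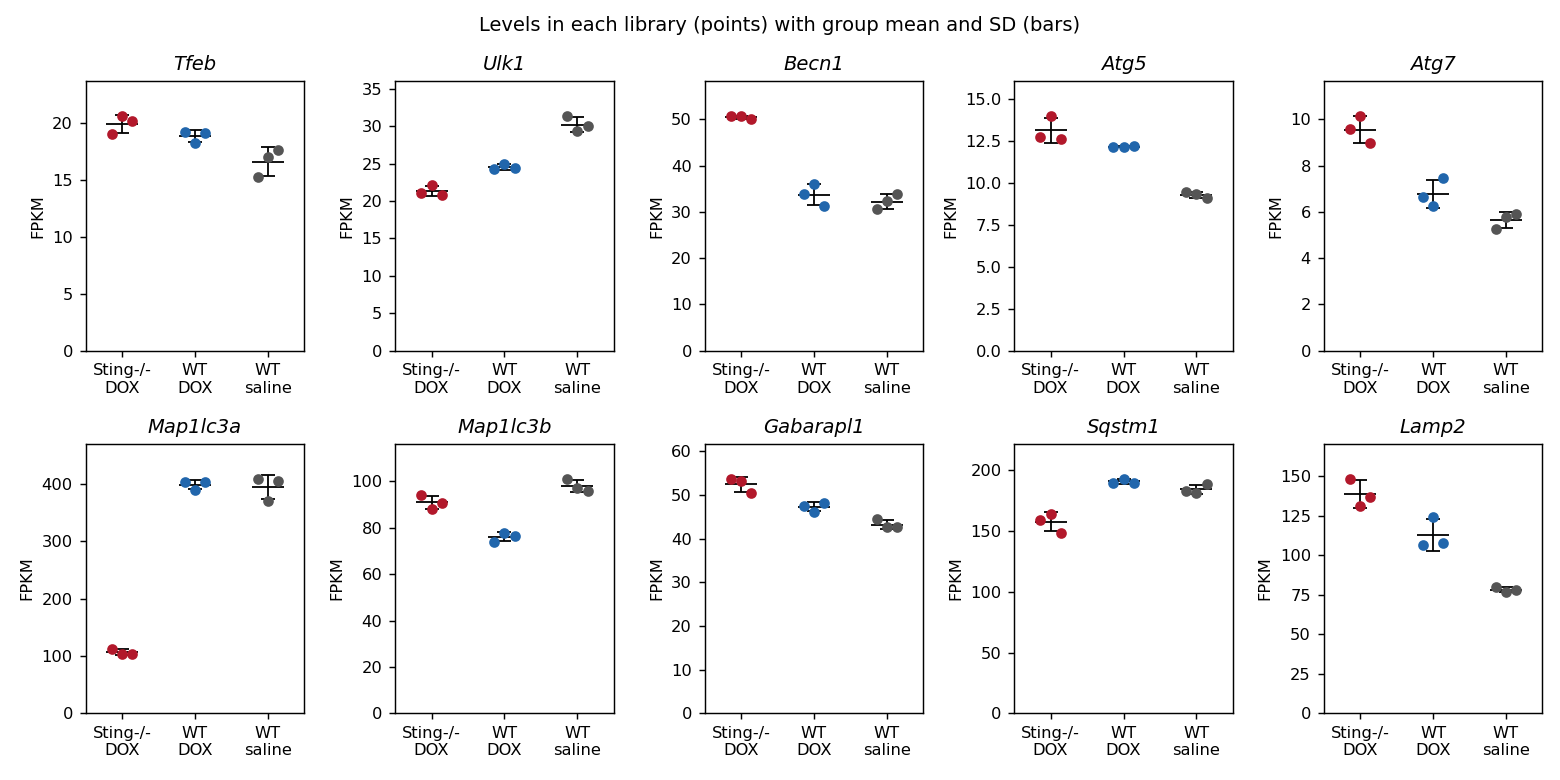
Level of each gene in FPKM (y axis, from 0) in the Sting-/- DOX, WT DOX and WT saline libraries; points are single libraries, and the long and short bars give the group mean and SD (n = 3). Map1lc3a is at 103 to 113 FPKM in Sting-/- DOX and at 369 to 408 FPKM in the 6 WT libraries, while Lamp2 steps down from left to right.

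Tfeb, the gene of the transcription factor, had 19.1, 20.6 and 20.1 FPKM in the Sting-/- DOX libraries, 19.2, 18.2 and 19.1 FPKM in the WT DOX libraries and 15.2, 17.0 and 17.6 FPKM in the WT saline libraries. All doxorubicin libraries of either genotype lay above all saline libraries, and the doxorubicin groups overlapped each other. The level in WT DOX exceeded that in WT saline by 0.18 on the log2 scale (SE 0.058, limma adjusted p = 0.0192), 0.05 above the median gene, but the value was -0.064 after median-ratio scaling and -0.021 after quantile normalization, neither past the threshold. Without WT saline library 1, WT DOX library 1 or WT DOX library 3 the rise no longer passed. Between Sting-/- DOX and WT DOX the difference was 0.08 (limma adjusted p = 0.243), or -0.17 relative to the median gene, and it passed as lower with median-ratio scaling (-0.25) and quantile normalization (-0.13) and as higher with each library scaled to the same sum (0.14).

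Ulk1, the kinase that starts autophagosome formation, had 21.1, 22.1 and 20.9 FPKM in Sting-/- DOX, 24.2, 24.95 and 24.4 FPKM in WT DOX and 31.3, 29.35 and 30.0 FPKM in WT saline. The groups did not overlap, with Sting-/- DOX lowest and WT saline highest. The fall in WT DOX against WT saline was -0.29 on the log2 scale (SE 0.044, limma adjusted p = 9.89e-05), 0.42 below the median gene. In Sting-/- DOX against WT DOX it was -0.19 (SE 0.044, limma adjusted p = 0.00149), 0.44 below the median gene. Among the 10 genes, Ulk1 alone was lower in each of these comparisons under every setting tried.

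Becn1 encodes Beclin 1, the scaffold of the class III phosphatidylinositol 3-kinase complex. It had 50.65, 50.7 and 50.1 FPKM in Sting-/- DOX, 33.9, 36.0 and 31.4 FPKM in WT DOX and 30.55, 32.4 and 33.8 FPKM in WT saline. The Sting-/- DOX libraries lay far above both WT groups, which overlapped. Sting-/- DOX exceeded WT DOX by 0.57 (SE 0.054, limma adjusted p = 8.19e-07), 0.32 above the median gene, with 0.23 to 0.64 over the alternatives. WT DOX and WT saline differed by 0.06 (limma adjusted p = 0.318), or -0.06 relative to the median gene, and with median-ratio scaling the value was -0.18 and passed as lower. Becn1 shares 45.4% of the 50-base stretches of its annotated coding transcripts with transcripts of the overlapping Cntd1, and 0.137% with Mrps17. Cntd1 had a mean of 0.633 FPKM in Sting-/- DOX, 0.267 FPKM in WT DOX and 0.343 FPKM in WT saline.

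Atg5, part of the complex that directs ATG8 proteins to the membrane, had 12.8, 13.98 and 12.65 FPKM in Sting-/- DOX, 12.1, 12.2 and 12.2 FPKM in WT DOX and 9.46, 9.35 and 9.09 FPKM in WT saline. Doxorubicin libraries of both genotypes were above every saline library, and the lowest Sting-/- DOX library was just above the highest WT DOX library. The rise in WT DOX against WT saline was 0.35 (SE 0.052, limma adjusted p = 7.53e-05), 0.23 above the median gene and 0.12 at the least over the alternatives. The 0.10 difference between Sting-/- DOX and WT DOX did not pass (limma adjusted p = 0.0887), was -0.15 relative to the median gene, and passed as lower with median-ratio scaling (-0.22) and quantile normalization (-0.14). Atg7, the E1-like enzyme that activates the ATG8 proteins and ATG12, had the lowest level of the 10 genes in every group. It stood at 9.57, 10.1 and 8.96 FPKM in Sting-/- DOX, 6.65, 6.26 and 7.46 FPKM in WT DOX and 5.25, 5.77 and 5.93 FPKM in WT saline, and the groups did not overlap. Sting-/- DOX exceeded WT DOX by 0.44 (SE 0.073, limma adjusted p = 0.000129), 0.19 above the median gene, which was 0.13 and did not pass with median-ratio scaling. WT DOX exceeded WT saline by 0.23 (SE 0.073, limma adjusted p = 0.0167), 0.10 above the median gene, but by 0.01 with median-ratio scaling, while the value was -0.02 with quantile normalization, and the call was lost without WT saline library 1 or WT DOX library 3.

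Map1lc3a encodes LC3A, an ATG8 protein. It had 113, 104 and 103 FPKM in Sting-/- DOX, 403, 389 and 403 FPKM in WT DOX and 408, 369 and 404 FPKM in WT saline. The WT groups overlapped, and each Sting-/- DOX library was far below every WT library. The level in Sting-/- DOX was lower than in WT DOX by -1.89 on the log2 scale (SE 0.048, limma adjusted p = 3.93e-12), 2.14 below the median gene and between -2.23 and -1.77 over the alternatives; 3.16% of the genes tested had a fold change as low or lower. The cardiomyocyte marker list moved in the same comparison, with 16 of 16 members lower and a median of -2.05, and its part in the change of Map1lc3a was not tested. WT DOX and WT saline differed by 0.02 (limma adjusted p = 0.768), or -0.11 relative to the median gene. The value for Map1lc3a passed as lower there with median-ratio scaling (-0.24) and quantile normalization (-0.16). In that comparison 13 of 16 cardiomyocyte markers fell and 1 rose (median -0.65), beside 21.5% of all genes lower and 45.3% higher. Their part was not tested there either.

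Map1lc3b, the gene of LC3B, the form most used to mark autophagosomes, had 94.1, 88.3 and 90.5 FPKM in Sting-/- DOX, 74.0, 77.95 and 76.7 FPKM in WT DOX and 101, 97.0 and 95.9 FPKM in WT saline. Every WT DOX library lay below every library of the other 2 groups. The fall in WT DOX against WT saline was -0.36 (SE 0.04, limma adjusted p = 7.08e-06), 0.49 below the median gene. Sting-/- DOX exceeded WT DOX by 0.25 (SE 0.04, limma adjusted p = 7.81e-05), which equals the displacement of the median gene, and the value was -0.09 without passing under median-ratio scaling. Its gene overlaps Zcchc14, which had a mean of 12.7 FPKM in Sting-/- DOX, 5.94 FPKM in WT DOX and 7.22 FPKM in WT saline. Of the 50-base stretches of Map1lc3b, 6.58% recur in transcripts of other genes, with the largest share in the predicted gene Gm6055 (5.34%). Gabarapl1, an ATG8 protein gene of the GABARAP branch, had 53.7, 53.3 and 50.4 FPKM in Sting-/- DOX, 47.5, 46.2 and 48.2 FPKM in WT DOX and 44.5, 42.7 and 42.6 FPKM in WT saline. The groups did not overlap, and Sting-/- DOX was highest. WT DOX exceeded WT saline by 0.13 (SE 0.041, limma adjusted p = 0.0167), as much as the median gene, but was lower after median-ratio scaling (-0.12, passing) and after quantile normalization (-0.048, not passing), and the call was lost without WT saline library 2 or 3 or WT DOX library 3. Sting-/- DOX exceeded WT DOX by 0.15 (SE 0.041, limma adjusted p = 0.00578), 0.10 below the median gene, and with median-ratio scaling it was lower (-0.19, passing). A share of 23.1% of its stretches recurs in 1700101I11Rik, a noncoding gene that overlaps it.

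Sqstm1 encodes p62, a receptor that carries ubiquitin-tagged cargo to the ATG8 proteins and is itself degraded by autophagy. It had 159, 164 and 149 FPKM in Sting-/- DOX, 189.6, 193 and 189.6 FPKM in WT DOX and 183, 181 and 188 FPKM in WT saline. Sting-/- DOX lay below both WT groups, and WT DOX lay just above WT saline with no overlap. The level in Sting-/- DOX was lower than in WT DOX by -0.28 (SE 0.04, limma adjusted p = 3.48e-05), 0.53 below the median gene and between -0.62 and -0.14 over the alternatives. The 0.05 difference between WT DOX and WT saline did not pass (limma adjusted p = 0.276), was -0.08 relative to the median gene, and with median-ratio scaling it passed as lower (-0.20). Its transcripts share 18.3% of their stretches with Mrnip, which had a mean of 3.47 FPKM in Sting-/- DOX, 3.15 FPKM in WT DOX and 2.67 FPKM in WT saline.

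Lamp2, the lysosomal membrane protein gene, had 148, 131 and 137 FPKM in Sting-/- DOX, 106, 124 and 108 FPKM in WT DOX and 80.1, 76.8 and 78.15 FPKM in WT saline. The groups did not overlap, with Sting-/- DOX highest and WT saline lowest. WT DOX exceeded WT saline by 0.52 (SE 0.061, limma adjusted p = 1.29e-05), 0.39 above the median gene and at least 0.27 over the alternatives. Sting-/- DOX exceeded WT DOX by 0.30 (SE 0.061, limma adjusted p = 0.000702), 0.05 above the median gene, but with median-ratio scaling the value was -0.04 and did not pass. The gene-level values do not separate the splice forms of Lamp2, of which LAMP2A serves chaperone-mediated autophagy. Macrophages are a cell type rich in lysosomes. Of 14 macrophage markers, 13 rose and 1 fell in WT DOX against WT saline (median 1.43), beside 45.3% and 21.5% of all genes. In Sting-/- DOX against WT DOX, 9 were higher and 4 lower (median 0.43, and 0.09 with median-ratio scaling), beside 54.1% and 29.7% of all genes. The part of these markers in the rise of Lamp2 was not tested.

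**Figure D2:**
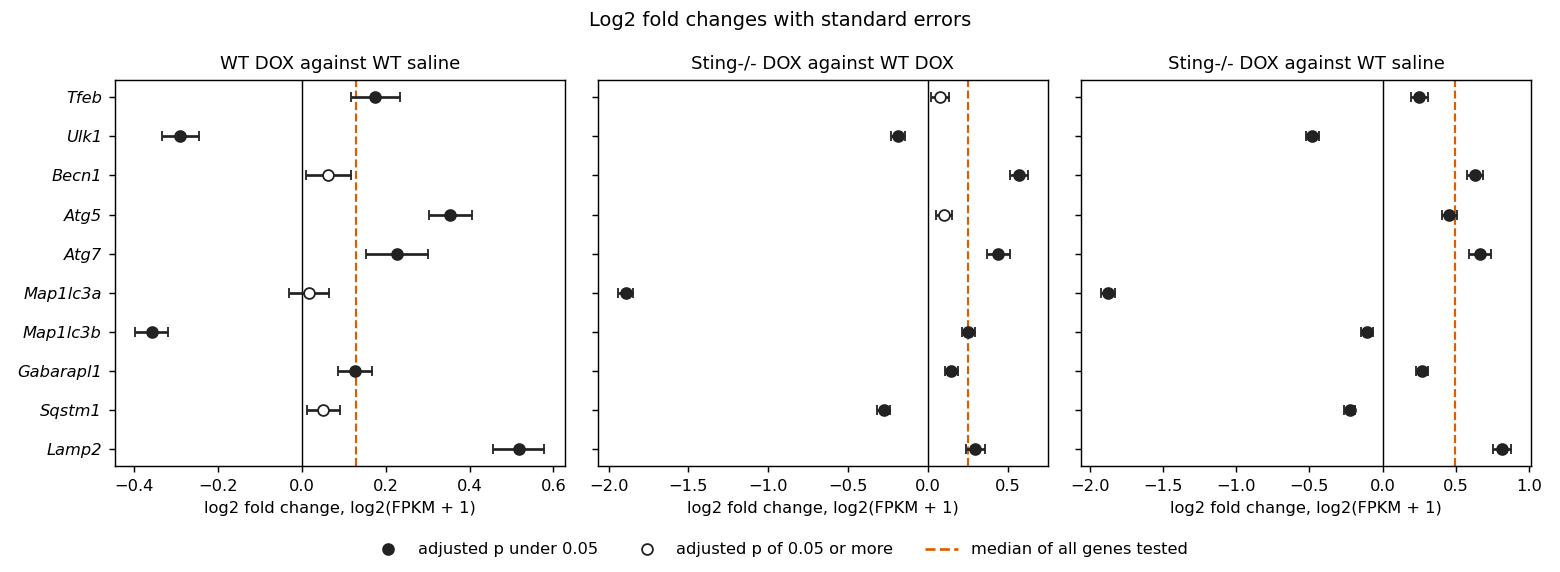
Log2 fold change (x axis, log2(FPKM + 1) scale) of each gene in the 3 comparisons, with SE as bars; filled points have a limma adjusted p under 0.05, and the dashed line marks the median of all 12485 genes tested (0.13, 0.25 and 0.49 from left to right). Map1lc3a lies at -1.89 and -1.88 in the comparisons with Sting-/- DOX and at 0.02 in WT DOX against WT saline.

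Against WT saline, the values in Sting-/- DOX were 0.25 for Tfeb, -0.48 for Ulk1, 0.63 for Becn1, 0.46 for Atg5 and 0.67 for Atg7. They were -1.88 for Map1lc3a, -0.11 for Map1lc3b, 0.27 for Gabarapl1, -0.23 for Sqstm1 and 0.81 for Lamp2. Relative to the median gene they were -0.24 for Tfeb, -0.98 for Ulk1, 0.14 for Becn1, -0.04 for Atg5, 0.17 for Atg7, -2.37 for Map1lc3a, -0.60 for Map1lc3b, -0.22 for Gabarapl1, -0.72 for Sqstm1 and 0.32 for Lamp2, so only Becn1, Atg7 and Lamp2 lay above it. Of these, Ulk1, Map1lc3a and Sqstm1 as lower and Lamp2 as higher passed under all 19 alternatives. The values of Tfeb (-0.31 and -0.15), Atg5 (-0.09 and -0.02) and, with median-ratio scaling, Gabarapl1 (-0.31) turned negative with median-ratio scaling or quantile normalization. Becn1 (0.05) did not pass with median-ratio scaling, nor did Atg7 with median-ratio scaling (0.14) or quantile normalization (0.15). Map1lc3b was -0.70 with median-ratio scaling, and its call was lost with each library scaled to the same sum, without a trend in the variance prior, and without WT saline library 1 or Sting-/- DOX library 2 or 3.

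The order of levels within a group, which FPKM allows because it is per length, differed among the 4 most abundant genes. Map1lc3a was highest in WT DOX (mean 398 ± 8.36 FPKM, SD, n = 3) and WT saline (394 ± 21.4 FPKM), ahead of Sqstm1. In Sting-/- DOX hearts Sqstm1 was highest (157 ± 7.82 FPKM), followed by Lamp2 (139 ± 8.76 FPKM) and then Map1lc3a (107 ± 5.49 FPKM). Lamp2 ranked above Map1lc3b in both doxorubicin groups and below it in WT saline. Gabarapl1, Becn1, Ulk1, Tfeb, Atg5 and Atg7 followed in that order in all 3 groups. Neighbours overlapped in 2 places, Gabarapl1 and Becn1 in Sting-/- DOX and Becn1 and Ulk1 in WT saline.

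The ATG8 family was examined as a whole, with Gabarap and Gabarapl2 added, because a share within the family does not change when a library is rescaled. In Sting-/- DOX hearts Gabarap made up most of the summed family level and Map1lc3a little, whereas in WT hearts they were closer. Map1lc3a held 12.6%, 12.2% and 12.6% of the sum in the Sting-/- DOX libraries, 40.2%, 39.5% and 40.4% in the WT DOX libraries and 43.4%, 42.2% and 44.0% in the WT saline libraries. Gabarap held 61.4%, 60.9% and 60.4% in Sting-/- DOX, 37.5%, 37.4% and 37.1% in WT DOX and 31.6%, 31.7% and 31.8% in WT saline. No group overlapped another in either share, for which the exact two-sided permutation test gives p = 0.1, the smallest that 3 against 3 libraries allow. Map1lc3b held 10.7% ± 0.394 in Sting-/- DOX, 7.66% ± 0.275 in WT DOX and 10.8% ± 0.324 in WT saline (SD, n = 3 each), so only the WT DOX share stood apart (exact permutation p = 0.8 for Sting-/- DOX against WT saline). The share of Gabarapl1 was 6.14% ± 0.139 in Sting-/- DOX, above 4.76% ± 0.0666 in WT DOX and 4.75% ± 0.122 in WT saline, which overlapped. Gabarapl2 held 9.82% ± 0.331, 10.2% ± 0.235 and 9.66% ± 0.468 in the same order of groups, and all 3 groups overlapped. The shares of a library add up to the whole, so the low share of Map1lc3a in Sting-/- DOX by itself raises the other shares there. Shares without Map1lc3a were not computed, and the order of groups in a share therefore need not hold among the remaining genes.

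The family sum was 854 ± 41.0 FPKM in Sting-/- DOX, 995 ± 10.4 FPKM in WT DOX and 912 ± 33.8 FPKM in WT saline (SD, n = 3 each). Map1lc3a exceeded Map1lc3b by a ratio of 1.17 ± 0.0334 in Sting-/- DOX, 5.23 ± 0.232 in WT DOX and 4.02 ± 0.204 in WT saline. Gabarap itself was at 520.4 ± 29.2 FPKM in Sting-/- DOX, 371 ± 4.57 FPKM in WT DOX and 289 ± 10.2 FPKM in WT saline. It rose in WT DOX against WT saline (0.36, limma adjusted p = 1.34e-05) and in Sting-/- DOX against WT DOX (0.48, limma adjusted p = 4.5e-07). Gabarapl2 was at 83.8 ± 3.96 FPKM in Sting-/- DOX, 102 ± 1.49 FPKM in WT DOX and 88.0 ± 3.08 FPKM in WT saline, with 17.0% of its 50-base stretches shared with predicted genes. It was lower in Sting-/- DOX than in WT DOX (-0.28, limma adjusted p = 7.56e-05) and higher in WT DOX than in WT saline (0.20, limma adjusted p = 0.00121), where median-ratio scaling turned the value negative.

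**Figure D3:**
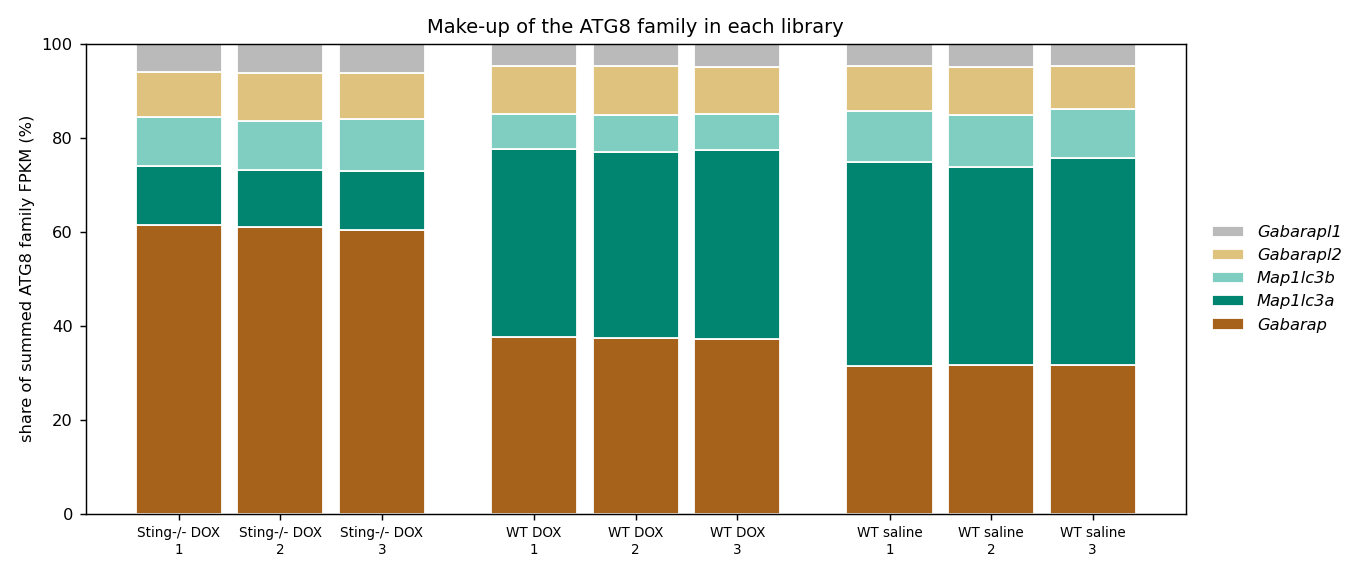
Share of each gene in the summed FPKM of the 5 ATG8-family genes (y axis, percent), 1 bar per library. Map1lc3a takes 12.2% to 12.6% of the bars in Sting-/- DOX against 39.5% to 40.4% in WT DOX and 42.2% to 44.0% in WT saline, and Gabarap takes 60.4% to 61.4%, 37.1% to 37.5% and 31.6% to 31.8%.

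Around these genes, 137 of 141 other listed genes of autophagy and its control passed the filter. In WT DOX against WT saline, 56 were higher and 40 lower (median 0.04, beside 0.13 for all genes). For Sting-/- DOX against WT DOX, 66 were higher and 47 lower (median 0.10, beside 0.25). Both shares are near the background given above. With median-ratio scaling the counts were 28 higher and 77 lower, and 39 higher and 75 lower. Quantile normalization gave 30 and 72, and 49 and 62. Scaling each library to the same sum gave 49 and 44, and 69 and 42. Against WT saline, Sting-/- DOX had 73 of them higher and 47 lower (87.6% called). Over all genes 63.0% were higher and 25.9% lower (88.9% called). Median-ratio scaling gave 39 higher and 81 lower in that comparison, beside 5281 and 5493 over all genes. The following counts by step include the 10 genes where they belong.

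The counts in WT DOX against WT saline stand beside 45.3% of all genes higher and 21.5% lower, and no list was tested as a set. Those with median-ratio scaling stand beside 3582 higher and 5109 lower of all 12485 genes, and those with quantile normalization beside 3523 and 5233. None of 5 genes of the initiation complex rose and 3 fell (median -0.13), Ulk1 among them with its relative Ulk2 (14.1 ± 0.962 FPKM in WT DOX and 17.8 ± 0.231 FPKM in WT saline) and the adaptor Atg13 (-0.13, limma adjusted p = 0.0394). None of 8 genes of membrane expansion rose and 4 fell (median -0.15), such as the phosphoinositide-binding Wdr45 (11.2 ± 1.34 FPKM in WT DOX and 17.9 ± 0.689 FPKM in WT saline). Of 17 genes of fusion with the lysosome, 11 rose and 2 fell (median 0.22), led by the SNARE gene Vamp8 at 77.7 ± 2.38 FPKM in WT DOX hearts and 42.5 ± 2.88 FPKM in WT saline (0.86, limma adjusted p = 2.17e-08). Of 29 lysosomal and autophagy genes known as TFEB targets (the CLEAR network), 20 rose and 4 fell (median 0.27). Gpnmb, a glycoprotein of lysosome-rich cells such as macrophages, was at 11.8 ± 0.403 FPKM in WT DOX hearts and 0.38 ± 0.141 FPKM in WT saline, and Ctsf, a lysosomal protease, fell to 14.4 ± 0.194 FPKM in WT DOX, against 25.1 ± 2.48 FPKM in WT saline. With median-ratio scaling these lists gave 5 higher and 7 lower for fusion (median -0.01) and 12 higher and 9 lower for the TFEB targets (median 0.04), while both early lists stayed negative, at -0.37 and -0.39.

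The middle steps were mixed. Of 11 genes of the Beclin 1 and class III phosphatidylinositol 3-kinase group, 5 rose and 2 fell in WT DOX against WT saline (median 0.09, and -0.08 with median-ratio scaling). Vmp1, a membrane protein needed for autophagosome formation, rose to 48.8 ± 2.77 FPKM in WT DOX, against 23.5 ± 1.89 FPKM in WT saline, while the catalytic subunit Pik3c3 fell (-0.26, limma adjusted p = 0.00771). Of 11 conjugation genes, 4 rose and 2 fell (median 0.01, and -0.22 with median-ratio scaling), with Atg3, the E2-like enzyme, at 22.9 ± 0.359 FPKM in WT DOX hearts and 15.6 ± 1.40 FPKM in WT saline. Of 14 cargo receptors, 3 rose and 6 fell (median -0.0036), with 1 higher and 10 lower after median-ratio scaling (median -0.25) and 3 and 9 after quantile normalization (median -0.17). Calcoco1, a receptor for the endoplasmic reticulum and Golgi, fell to 41.6 ± 0.777 FPKM in WT DOX, against 65.9 ± 2.97 FPKM in WT saline, and Stbd1, which binds glycogen, rose (0.84, limma adjusted p = 5e-05). Among 11 transcriptional regulators 5 rose and 6 fell (median -0.25). Tfec, a relative of Tfeb, rose to 2.54 ± 0.658 FPKM in WT DOX, against 0.20 FPKM in each WT saline library, and Zkscan3, described in human cells as a repressor of autophagy genes, fell (-0.81, limma adjusted p = 1.21e-06). Of the other relatives of Tfeb, Tfe3 rose (0.51, limma adjusted p = 0.000122). Mitf fell to 12.1 ± 0.306 FPKM in WT DOX, against 17.1 ± 0.501 FPKM in WT saline (-0.47, limma adjusted p = 4.25e-06). Of 40 genes of mTORC1, AMPK and other control of TFEB, 11 rose and 13 fell (median -0.05), with 3 higher and 28 lower after median-ratio scaling (median -0.25) and 3 and 26 after quantile normalization (median -0.25). Of 7 genes of chaperone-mediated autophagy or otherwise related to chaperones or LAMP2, 4 rose and 1 fell (median 0.52).

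The counts between Sting-/- DOX and WT DOX stand beside 54.1% of all genes higher and 29.7% lower (83.8% called in all). Those with median-ratio scaling stand beside 4709 higher and 5385 lower of all 12485 genes, and those with quantile normalization beside 5211 and 4953. Of the class III phosphatidylinositol 3-kinase group, 10 of 11 genes were higher and none lower (median 0.53, beside 0.25 for all genes). The counts were 7 and 2 with median-ratio scaling (median 0.23) and 7 and 0 with quantile normalization (median 0.27). Vmp1 stood at 94.7 ± 5.34 FPKM in Sting-/- DOX and 48.8 ± 2.77 FPKM in WT DOX, and Bcl2, which holds Beclin 1 inactive, at 3.87 ± 0.155 FPKM in Sting-/- DOX and 1.79 ± 0.236 FPKM in WT DOX. Among 14 cargo receptors 2 were higher and 8 lower (median -0.25, and -0.57 with median-ratio scaling), including Sqstm1. Retreg1, a receptor for the endoplasmic reticulum, was at 14.6 ± 1.46 FPKM in Sting-/- DOX and 70.0 ± 0.442 FPKM in WT DOX (-2.19, limma adjusted p = 7.36e-12), and the mitophagy receptor Bnip3 at 49.8 ± 1.69 FPKM in Sting-/- DOX and 125 ± 2.16 FPKM in WT DOX. Its relative Bnip3l went the other way, at 55.0 ± 1.152 FPKM in Sting-/- DOX and 34.7 ± 0.508 FPKM in WT DOX (0.65, limma adjusted p = 1.96e-08).

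Among these lists, the control of TFEB spanned the widest range of differences between Sting-/- DOX and WT DOX. It was also the longest list, and a range tends to widen with the number of genes and rests on single genes at its ends. Of 40 genes of mTORC1, AMPK and related control, 13 were higher and 16 lower (median -0.01). Median-ratio scaling gave 5 higher and 26 lower (median -0.32), quantile normalization 9 and 23 (median -0.26) and scaling to the same sum a median of 0.04. Prkaa2, the AMPK catalytic subunit abundant in muscle, was at 1.65 ± 0.146 FPKM in Sting-/- DOX and 19.98 ± 0.575 FPKM in WT DOX (-2.99, limma adjusted p = 3.15e-13). Rragd, a Rag GTPase that ties TFEB to mTORC1, was at 2.42 ± 0.240 FPKM in Sting-/- DOX and 18.5 ± 1.14 FPKM in WT DOX. Castor1, an arginine sensor upstream of mTORC1, was at 15.0 ± 0.155 FPKM in Sting-/- DOX and 2.53 ± 0.255 FPKM in WT DOX, and Ppp3ca, a calcineurin subunit that dephosphorylates TFEB, was higher (0.95, limma adjusted p = 1.65e-09). The other listed calcineurin genes, Ppp3cb (-0.30) and Ppp3r1 (-0.30), were lower. Prkaa1, the other AMPK catalytic subunit gene, was higher (0.38). Among the other Rag genes Rragc was higher (0.41), and Rraga (-0.24) and Rragb (-0.86) were lower. Among the 11 regulators of transcription, 5 were higher and 5 lower (median 0.08, and -0.25 with median-ratio scaling). Ppargc1a, a coactivator of mitochondrial genes and a TFEB target, was at 1.31 ± 0.0929 FPKM in Sting-/- DOX and 16.1 ± 0.698 FPKM in WT DOX. Foxo1 was at 11.6 ± 0.889 FPKM in Sting-/- DOX and 4.63 ± 0.150 FPKM in WT DOX. Zkscan3, lower in WT DOX than in WT saline, was higher in Sting-/- DOX than in WT DOX (1.12). Of the relatives of Tfeb, Tfe3 was higher in Sting-/- DOX than in WT DOX (0.76) and Mitf lower (-1.055). Tfec was also lower (-0.35), with overlapping ranges. Cardiomyocyte markers were lower in the same comparison, as given above, and 12 of 12 endothelial markers (median 1.95) and 11 of 12 fibroblast markers (median 2.17) were higher. The part of these markers in the differences was not tested.

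Among the other steps in Sting-/- DOX against WT DOX, to be read against the same shares over all genes (54.1% higher, 29.7% lower), 1 of 5 initiation genes was higher and 3 lower (median -0.17), with Rb1cc1, the scaffold of the ULK1 complex, at 7.99 ± 0.233 FPKM in Sting-/- DOX and 12.2 ± 0.793 FPKM in WT DOX. Of 8 membrane expansion genes 3 were higher and 5 lower (median -0.19), with Wipi1 at 22.5 ± 0.576 FPKM in Sting-/- DOX and 53.0 ± 0.679 FPKM in WT DOX. Of 11 conjugation genes 5 were higher and 3 lower (median 0.10, and -0.22 with median-ratio scaling). Atg16l2 was at 12.3 ± 0.961 FPKM in Sting-/- DOX and 3.41 ± 0.308 FPKM in WT DOX, and the protease gene Atg4d was lower (-1.02, limma adjusted p = 1.88e-09). Its relatives Atg4a (0.54), Atg4b (0.28) and Atg4c (0.47) were higher, and Atg4b did not pass with median-ratio scaling (-0.03). Of 17 fusion genes 12 were higher and 4 lower (median 0.25, and -0.08 with median-ratio scaling), with the tethering factor gene Tecpr1 at 26.0 ± 0.805 FPKM in Sting-/- DOX and 7.75 ± 0.437 FPKM in WT DOX. Of 29 TFEB targets 20 were higher and 5 lower (median 0.32, and 0.01 with 12 higher and 12 lower under median-ratio scaling). Ctsb, a lysosomal protease, was at 1600 ± 80.3 FPKM in Sting-/- DOX and 754 ± 33.1 FPKM in WT DOX. Of 7 genes of chaperone-mediated autophagy or otherwise related to chaperones or LAMP2, 4 were higher and 2 lower (median 0.24, and -0.10 with median-ratio scaling). Among them the co-chaperone gene Bag3 was at 44.0 ± 2.47 FPKM in Sting-/- DOX and 104 ± 0.726 FPKM in WT DOX.

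**Figure D4:**
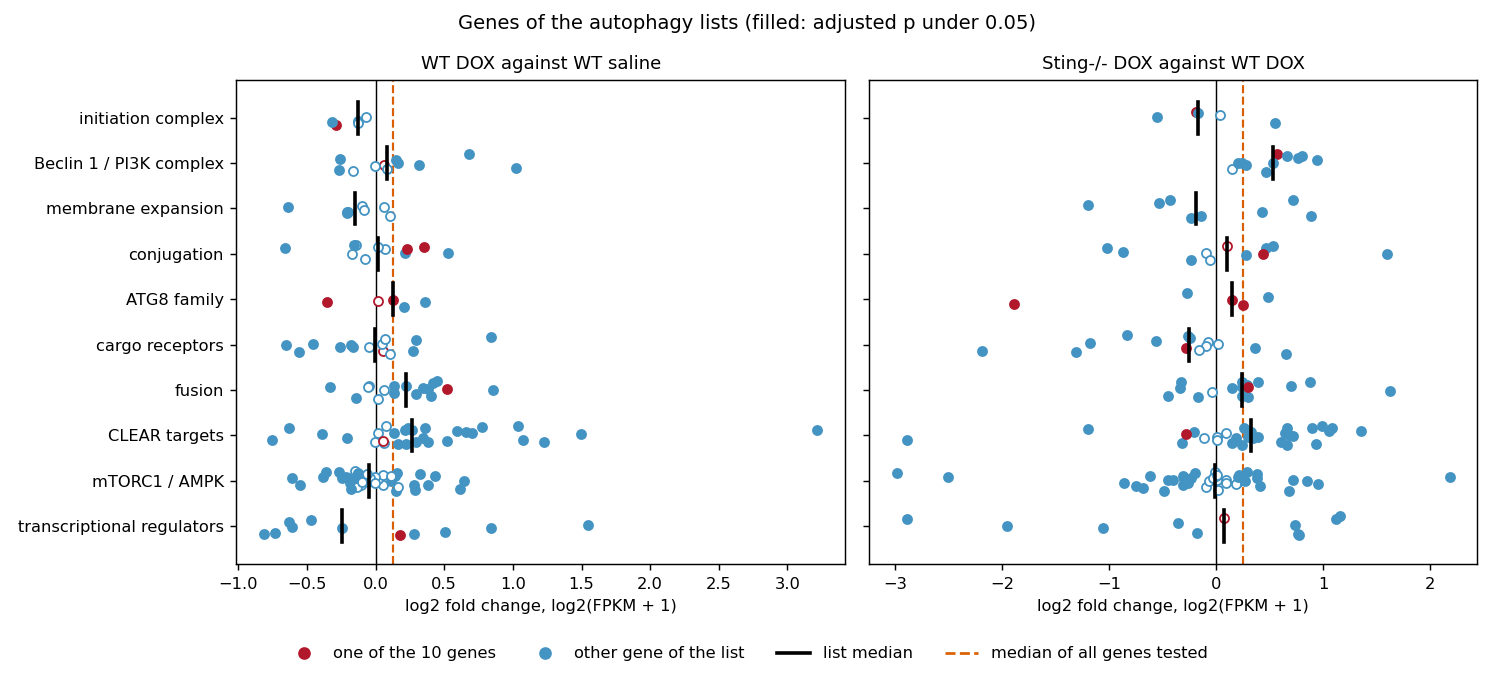
Log2 fold change (x axis, log2(FPKM + 1) scale) of every tested gene of 10 autophagy lists, 1 row per list, in WT DOX against WT saline (left) and Sting-/- DOX against WT DOX (right); filled points passed limma at an adjusted p under 0.05, black bars are list medians and the dashed line is the median of all genes tested (0.13 and 0.25). On the right the Beclin 1 group has its median at 0.53 and no gene below 0, and cargo receptors have theirs at -0.25.

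The genes whose pattern was most like that of Tfeb were ranked by the distance between log2 fold changes in WT DOX against WT saline and Sting-/- DOX against WT DOX, over the 3 group means. The nearest 5 named genes were Lepr (distance 0.0058), Csnk2b (0.0106), Rab5a (0.0114), Ankrd13c (0.0143) and Trappc1 (0.0174). Rab5a, a GTPase of early endosomes, was at 38.5 FPKM in Sting-/- DOX, 36.7 FPKM in WT DOX and 32.2 FPKM in WT saline, and Lepr, the leptin receptor gene, was near 1 FPKM. Of 12119 genes compared, 189 lay within a distance of 0.1, so the Tfeb pattern is shared with many genes.

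**Figure D5:**
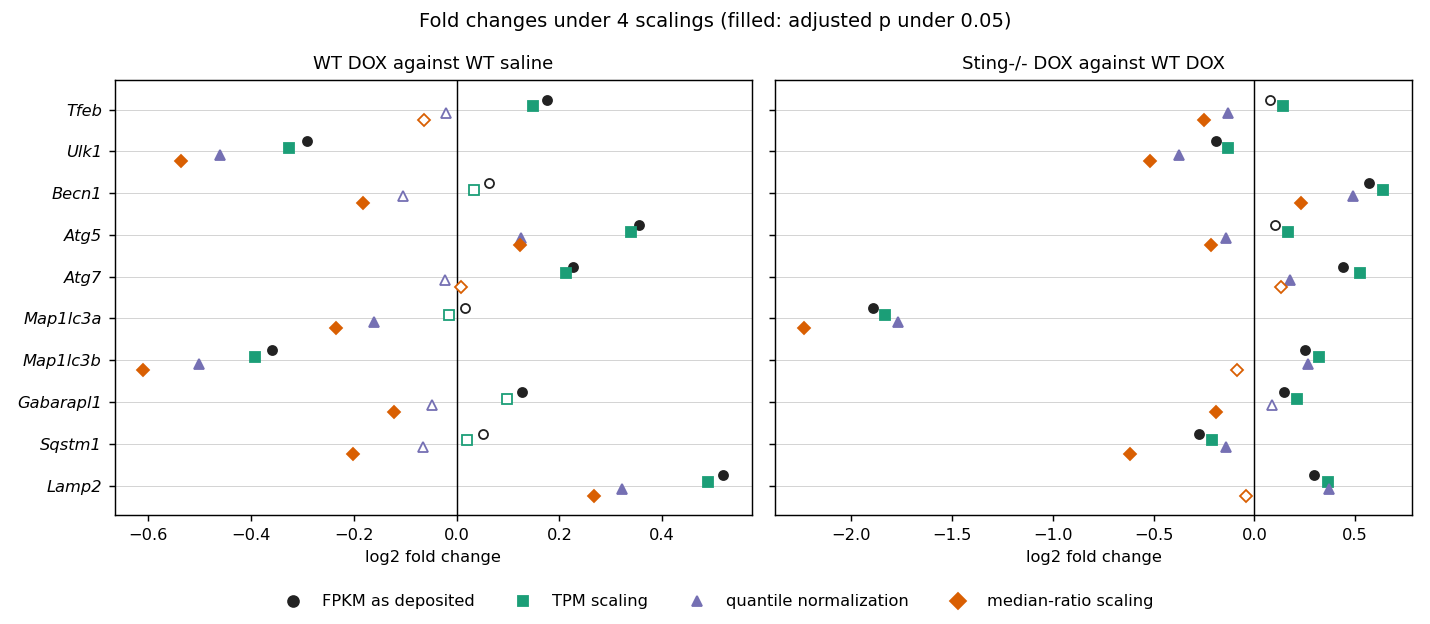
Log2 fold change (x axis) of each gene with the FPKM as deposited (circles) and after 3 rescalings of the libraries, in WT DOX against WT saline (left) and Sting-/- DOX against WT DOX (right); filled symbols have a limma adjusted p under 0.05. Median-ratio scaling gives the lowest value of nearly every gene, and Map1lc3a on the right stays between -2.23 and -1.77.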

How the data were processed

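Per the labels' protocols, a QIAGEN kit was used to extract total RNA from the hearts and an MGI kit to prepare the libraries. The authors deposited 1 file per library with FPKM values to 2 decimals per gene ID. Build GRCm39 and the tools RSEM 1.2.12, Bowtie2 2.2.5 and HISAT2 2.0.4 come from the submitters' processing notes, which give no role or order; strand settings are not given in the sources used here, so reads of overlapping genes cannot be told apart. FPKM is relative to each library's total, and a change in its most abundant genes moves the rest: the 10 most abundant genes held 8.09% to 8.44% of the FPKM sum in Sting-/- DOX, 11.5% to 12.05% in WT DOX and 16.5% to 16.6% in WT saline.

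Of the gene IDs, 16825 matched a RefSeq symbol and 48 did not. Low values of single-transcript genes lay within 0.1 of whole reads in 61.2% to 70.4% of cases (16.7% to 23.2% after shuffling), so depth is approximate and read counts could not be rebuilt. The depth was chosen to bring these values nearest to whole reads. Shuffled values were not refitted, so their share does not test the depth. The test was run on log2(FPKM + 1) using limma 3.58.1 in R 4.3.3 (trended prior, 9 libraries in 1 fit, 6 residual degrees of freedom, two-sided, Benjamini-Hochberg threshold 0.05); fold changes on this scale understate changes of low genes. The step was tested on simulated data. Joins, permutation tests and figures used matplotlib 3.10.9, scipy 1.17.1, pandas 2.3.3 and numpy 2.4.6 under Python 3.11.15. Shared 50-base stretches were counted on GENCODE M21 transcripts.

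Groups and replicate numbers came from the titles. Libraries with the same number did not deviate together (r from -0.03 to 0.10 over 9 pairs), so the numbers were not taken as pairs. Replicates shared at most 1.06% identical values. All 10 genes were named, and from each autophagy list at most 2 genes higher and 2 lower with the largest change per comparison. Relatives of some of these genes were added beside them. The genes and lists were chosen with earlier results of these data known. Alternatives covered pseudocount, low-value filter, scaling, libraries in the fit, variance prior, library weights, a replicate block and leaving out each library.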

Additional observations from a re-analysis of the deposited data

How the results depend on the processing

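Over 19 alternatives, 4 of the 10 genes kept direction and call throughout in each comparison, as named above. Rescaling changed most: in WT DOX against WT saline, median-ratio scaling and quantile normalization gave Tfeb -0.064 and -0.021, Map1lc3a -0.24 and -0.16 and Gabarapl1 -0.12 and -0.048; median-ratio scaling gave Becn1 -0.18 and Sqstm1 -0.20, and quantile normalization Atg7 -0.023. Also negative there, without passing, were Becn1 (-0.10) and Sqstm1 (-0.065) with quantile normalization and Map1lc3a with each library scaled to the same sum (-0.014) or without WT saline library 2 (-0.029). In Sting-/- DOX against WT DOX the 2 scalings gave Tfeb -0.25 and -0.13 and Atg5 -0.22 and -0.14, and median-ratio scaling gave Map1lc3b -0.087, Gabarapl1 -0.19 and Lamp2 -0.044. In Sting-/- DOX against WT saline they gave Tfeb -0.31 and -0.15 and Atg5 -0.091 and -0.016, and median-ratio scaling Gabarapl1 -0.31. Of the 10 genes, these 2 scalings gave 2 and 2 higher and 6 and 3 lower in WT DOX against WT saline. In Sting-/- DOX against WT DOX they gave 1 and 4 higher and 6 and 5 lower. Against WT saline, Sting-/- DOX had 1 and 2 higher and 6 and 5 lower. Of the other autophagy genes, 28 and 30 were higher and 77 and 72 lower in WT DOX against WT saline. In Sting-/- DOX against WT DOX, 39 and 49 were higher and 75 and 62 lower. In Sting-/- DOX against WT saline, 39 and 45 were higher and 81 and 70 lower. Over all genes, 3582 and 3523 were higher and 5109 and 5233 lower in WT DOX against WT saline, against 5651 and 2680 as deposited, and 5493 and 5188 were lower in Sting-/- DOX against WT saline, against 3228. The share of higher calls moved to 41.2% and 40.2% (67.8% as deposited) in WT DOX against WT saline, to 46.7% and 51.3% (64.6%) in Sting-/- DOX against WT DOX and to 49.0% and 51.6% (70.9%) in Sting-/- DOX against WT saline. The cause was not tested. Quantile normalization moved ATG8 shares in Sting-/- DOX, WT DOX and WT saline to 10.2%, 8.12% and 11.1% for Map1lc3b, 63.0%, 36.3% and 30.9% for Gabarap, 5.64%, 5.12% and 5.10% for Gabarapl1 and 9.27%, 10.8% and 10.2% for Gabarapl2, and to 11.99% in Sting-/- DOX for Map1lc3a. Leaving out 1 library left 2 to 5 of the 10 genes higher in WT DOX against WT saline, with 3 without WT saline library 1 and 2 without WT DOX library 3.

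With a replicate block on the numbers of the titles, which do not pair the libraries, the counts for the 10 genes stayed at 5 higher and 2 lower in WT DOX against WT saline and 5 and 3 in Sting-/- DOX against WT DOX, and over all genes they were 5607 and 2640, and 6749 and 3700.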
